A study of Hipposideros armiger and Mus musculus with 20 samples.

Results

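The genes described here are the immunoglobulin genes measured in mouse fat, together with Jchain, Cd79b and Fcrla, 3 genes of the cells that make antibody. They were chosen by name: every gene of the deposited table whose symbol is that of a heavy chain variable or constant gene, a kappa light chain gene or a lambda light chain gene, plus those 3. The names matched 45 of 14871 genes. Of the 45, 39 were kept because they reached 1 FPKM (sequenced fragments per length of transcript and per library size) in at least 2 of the 8 mouse libraries. The 39 are 17 heavy V genes, 3 heavy constant genes (Ighm, Ighg1 and Ighg3), 11 kappa V genes, the kappa constant gene Igkc, 3 lambda V genes, the lambda constant gene Iglc2, and Jchain, Cd79b and Fcrla. GENCODE M21 lists 364 mouse genes with immunoglobulin names of this form, and 322 of them are not analysed here, so the values cover a part of the antibody repertoire.

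Antibodies are built from heavy and light chains, each with a variable region that binds antigen and a constant region that sets the class. A B lymphocyte joins a V gene to smaller gene segments upstream of a constant gene, carries the product on its surface as a receptor with the CD79 proteins, and, once it has become a plasma cell, secretes antibody from a very large amount of immunoglobulin mRNA. IgM is the class made first, switching to an IgG or IgE constant gene comes later, and the joining chain (Jchain) links units of secreted IgM and IgA. Subcutaneous fat pads of mice can enclose a lymph node and, in females, mammary epithelium, and the labels do not say whether a node was removed.

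The study sequenced RNA of adipose tissue from ICR mice and from the great roundleaf bat after 7 days at 10 °C (cold) or 30 °C (warm). The 8 mouse libraries fall into 4 groups: interscapular brown fat (iBAT) of cold mice, iBAT of warm mice, subcutaneous white fat (sWAT) of cold mice and sWAT of warm mice. ICR is an outbred stock, no genotype or drug differed between the groups, and the labels give no age. Each group is 1 library from a female and 1 from a male, and the labels do not say whether the iBAT and sWAT libraries came from the same animals, so p-values measure only the spread between these libraries.

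Depth, read from the smallest steps of the values, differed little, from 0.95 to 1.109 relative to the warm female iBAT library, and summed FPKM ran from 263338 to 305098. Adipoq, the fat cell hormone adiponectin, was between 369 and 1716 FPKM in the 8 libraries. Some libraries stood apart. The summed FPKM of 9 skeletal muscle genes was 1454 in cold male sWAT, against 11.3 to 28.2 in the other 3 sWAT libraries, and it was 25.0 in cold female iBAT, against 796 to 1653 in the other 3 iBAT libraries. The summed FPKM of 5 mammary and epithelial genes was 207 and 455 in the female sWAT libraries, cold and warm, against 0.126 and 1.95 in the male ones. For the kept genes named in sWAT, the change without the cold male library is given beside the change from all libraries.

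The V genes are copies of one another, and the way reads were shared between copies is not given in the sources used here, so the level of a single V gene is uncertain. Of the 31 V members, 23 had an annotated relative over 90% identical along the coding sequence, and the median identity to the closest relative was 93.4%. The sequences shown are stretches of 300 bases from the coding sequences of GENCODE M21 transcripts (GRCm38), with the bases that differ from the partner in capitals and positions counted from the first coding base. The first pair is Igkv1-117, the V gene with the highest level in most libraries, and its closest relative Igkv1-110, which is not analysed here. They differ at 10 positions and share a run of 142 bases, and bases 47 to 346 are shown, which hold all 10.

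Igkv1-117: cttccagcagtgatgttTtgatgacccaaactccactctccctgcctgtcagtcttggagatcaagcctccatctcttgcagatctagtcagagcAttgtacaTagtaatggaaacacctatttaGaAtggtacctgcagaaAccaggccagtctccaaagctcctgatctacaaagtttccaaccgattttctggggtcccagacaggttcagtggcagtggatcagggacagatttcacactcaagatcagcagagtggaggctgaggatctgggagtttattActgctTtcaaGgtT

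Igkv1-110: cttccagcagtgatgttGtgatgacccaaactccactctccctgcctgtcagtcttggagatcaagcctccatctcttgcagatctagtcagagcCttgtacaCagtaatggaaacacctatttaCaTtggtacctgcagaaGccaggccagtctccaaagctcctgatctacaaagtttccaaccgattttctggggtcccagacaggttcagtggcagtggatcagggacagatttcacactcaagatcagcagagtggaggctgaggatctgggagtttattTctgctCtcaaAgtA

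The lambda V genes Iglv1 and Iglv2 are both members and differ at 11 of 351 positions, with a shared run of 104 bases, and bases 19 to 318 hold 9 of the 11.

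Iglv1: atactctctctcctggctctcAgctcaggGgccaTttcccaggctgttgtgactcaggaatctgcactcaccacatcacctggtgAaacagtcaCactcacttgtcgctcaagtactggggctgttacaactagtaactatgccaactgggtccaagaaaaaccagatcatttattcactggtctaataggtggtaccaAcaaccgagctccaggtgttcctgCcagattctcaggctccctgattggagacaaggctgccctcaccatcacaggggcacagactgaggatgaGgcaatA

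Iglv2: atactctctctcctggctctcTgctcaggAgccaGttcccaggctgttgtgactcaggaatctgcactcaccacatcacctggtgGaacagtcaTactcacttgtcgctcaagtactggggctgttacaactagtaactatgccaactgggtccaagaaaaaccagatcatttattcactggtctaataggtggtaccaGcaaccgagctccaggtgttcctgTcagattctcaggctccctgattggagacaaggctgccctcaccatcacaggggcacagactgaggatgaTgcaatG

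The closest pair among the members is Ighv1-20 and Ighv1-37, with 5 differences in 351 bases and a shared run of 137 bases, and bases 30 to 329 hold all 5.

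Ighv1-20: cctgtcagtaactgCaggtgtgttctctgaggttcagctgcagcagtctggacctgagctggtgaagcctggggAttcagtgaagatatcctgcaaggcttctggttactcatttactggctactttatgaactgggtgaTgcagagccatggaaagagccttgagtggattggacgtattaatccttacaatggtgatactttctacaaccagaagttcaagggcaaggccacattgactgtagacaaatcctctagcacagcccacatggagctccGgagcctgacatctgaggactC

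Ighv1-37: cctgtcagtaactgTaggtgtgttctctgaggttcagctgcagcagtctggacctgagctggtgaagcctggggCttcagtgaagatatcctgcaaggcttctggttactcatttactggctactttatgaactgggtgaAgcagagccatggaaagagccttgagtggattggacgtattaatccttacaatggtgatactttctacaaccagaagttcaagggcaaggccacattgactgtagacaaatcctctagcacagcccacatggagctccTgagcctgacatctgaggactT

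Igkc, the gene with the highest level, is a single constant gene, and the first 300 of its annotated coding bases are given with no partner and so no capitals.

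Igkc: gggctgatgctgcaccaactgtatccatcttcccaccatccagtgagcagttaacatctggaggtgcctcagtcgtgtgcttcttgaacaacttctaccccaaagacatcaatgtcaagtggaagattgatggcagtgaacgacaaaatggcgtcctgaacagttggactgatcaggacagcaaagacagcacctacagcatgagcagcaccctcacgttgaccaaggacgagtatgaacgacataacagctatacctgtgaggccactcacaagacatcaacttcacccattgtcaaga

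On GRCm38, GENCODE M21 places Igkc at chr6:70726435-70726966 on the plus strand, downstream of Igkv1-117 at chr6:68121046-68121827. The heavy constant genes lie on the minus strand of chromosome 12, with Ighm at chr12:113418558-113422730, Ighg3 at chr12:113356224-113361232 and Ighg1 at chr12:113325240-113330523. Iglc2 is at chr16:19198396-19200351, Jchain at chr5:88519809-88527891, Cd79b at chr11:106311341-106314762 and Fcrla at chr1:170917576-170927583, all on the minus strand. The build behind the deposited values is not given in the sources used here, and the places of genes on it were not used.

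All 39 kept genes had their highest level in the same library, warm female sWAT. Their summed FPKM was 14.7 in cold female iBAT, 14.7 in cold male iBAT, 263 in warm female iBAT and 26.3 in warm male iBAT. In sWAT the sum was 1580 in the cold female, 116 in the cold male, 16350 in the warm female and 3267 in the warm male library. The immunoglobulin genes alone were thus 5.33% of all FPKM in warm female sWAT, 1.13% in warm male sWAT, 0.502% in cold female sWAT and 0.0391% in cold male sWAT, and at most 0.0843% in any iBAT library. In bulk tissue, fewer antibody-making cells and less antibody RNA per cell cannot be told apart. The heat map of the kept genes by library shows the same order for most classes.

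**Figure D1:**
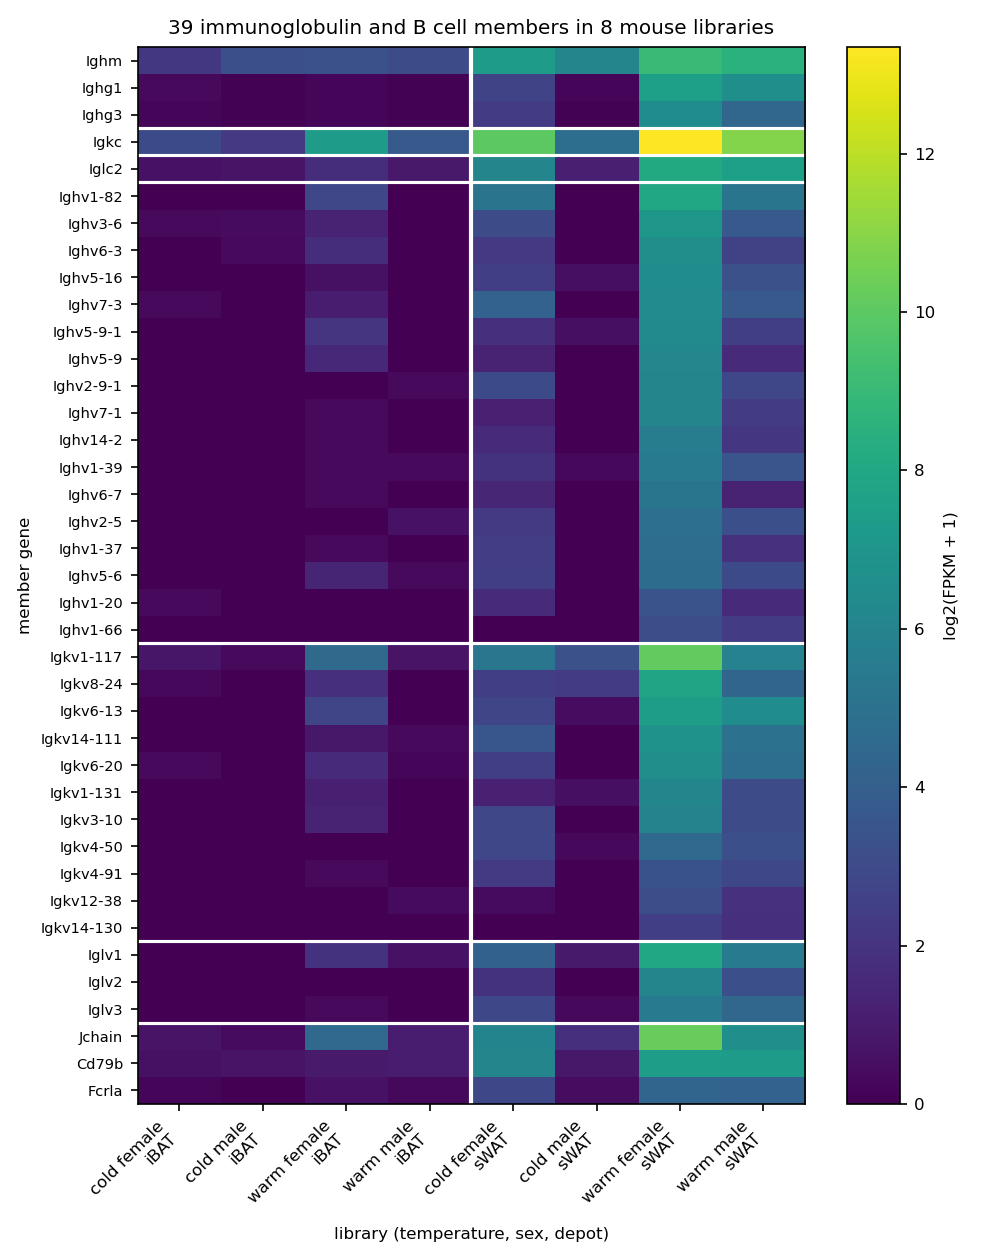
Level of the 39 kept genes, as log2(FPKM + 1) by colour, with a row for each gene grouped by class (white lines) and a column for each of the 8 mouse libraries. The warm female sWAT column is the brightest for every gene, and most V genes are near 0 in iBAT and in cold male sWAT.

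In sWAT, antibody genes were lower in cold than in warm mice, and among the genes that are not V genes Ighg1, Igkc and Jchain had the largest changes. Igkc, the constant region of kappa light chains, was at 999.7 FPKM in the female and 26.9 FPKM in the male library of cold sWAT, against 10419.8 FPKM in the female and 1846 FPKM in the male library of warm sWAT. Both cold libraries lay below both warm ones, and each cold library lay below the warm library of its sex, at 0.0959 times the warm level in females and 0.0145 times in males. Igkc fell, with a log2 change of FPKM + 1 of −4.35 ± 0.97 (SE, 2 libraries per group) less the median change of all genes, which was −0.37 (limma, adjusted p = 0.0194). All changes below are on this scale, which understates the change of genes with low values, and each p-value is that of the change before the median was taken off. The Igkc call was lost without the cold male sWAT library (−2.99, adjusted p = 0.0752), without the warm female (adjusted p = 0.0829) or the warm male library (adjusted p = 0.102), and with no sex term (adjusted p = 0.0947).

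Jchain, the joining chain of secreted IgM and IgA, had 63.1 FPKM in cold female and 2.56 FPKM in cold male sWAT, against 1231 FPKM in warm female and 97.9 FPKM in warm male sWAT. It fell (−4.17 ± 0.92, limma, adjusted p = 0.0191), and the cold female library was again between the cold male and the warm male library. This call too was lost without the cold male sWAT library (−3.40, adjusted p = 0.0947), without the warm female (adjusted p = 0.0939) or the warm male library (adjusted p = 0.0816), and with no sex term (adjusted p = 0.0949). Iglc2, the constant region of a lambda light chain, had 67.5 FPKM in cold female and 1.26 FPKM in cold male sWAT, against 276 FPKM in warm female and 187 FPKM in warm male sWAT. The groups did not overlap, and the change was −3.83 ± 1.18 (limma, adjusted p = 0.038), and −1.67 without the cold male library (adjusted p = 0.0381).

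The heavy constant genes differed in how far they were apart. Ighm, the constant region of IgM, had 159 FPKM in cold female and 67.1 FPKM in cold male sWAT, against 515 FPKM in warm female and 368 FPKM in warm male sWAT. This was the smallest of the constant gene falls, at −1.70 ± 0.52 (limma, adjusted p = 0.0285). Ighg1, the constant region of IgG1, had 5.76 FPKM in cold female and 0.117 FPKM in cold male sWAT, against 181 FPKM in warm female and 98.0 FPKM in warm male sWAT. It had the largest change of any kept gene, −5.24 ± 0.60 (limma, adjusted p = 0.0106). Ighg3, the constant region of IgG3, had 4.10 FPKM in cold female and 0.0571 FPKM in cold male sWAT, against 89.8 FPKM in warm female and 20.4 FPKM in warm male sWAT, and also fell (−3.88 ± 0.63, adjusted p = 0.0135). None of these 3 genes overlapped between the cold and the warm sWAT libraries, but the share of all genes without overlap was not counted. Without the cold male library the change was −1.10 for Ighm, whose call was lost, −4.23 for Ighg1 and −3.20 for Ighg3. Every call of a kept gene in cold against warm sWAT, these 3 included, was lost without the warm female library.

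Cd79b and Fcrla are B cell genes rather than antibody genes. Cd79b, a signalling chain of the B cell receptor, had 66.2 FPKM in cold female and 0.848 FPKM in cold male sWAT, against 172 FPKM in warm female and 166 FPKM in warm male sWAT. The groups did not overlap, but the 2 cold libraries were 78.1-fold apart, and the change of −3.57 ± 1.36 did not pass (limma, adjusted p = 0.0659). With 1 cold library left out it passed, but its size rested on which was kept: −1.02 without the cold male (adjusted p = 0.034) and −6.11 without the cold female library (adjusted p = 0.00104). Fcrla, an Fc receptor-like protein of the B cell interior, had 6.55 FPKM in cold female and 0.382 FPKM in cold male sWAT, against 19.1 FPKM in warm female and 17.1 FPKM in warm male sWAT, and it fell (−2.19 ± 0.59, adjusted p = 0.0237; −1.15 without the cold male library, adjusted p = 0.034).

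**Figure D2:**
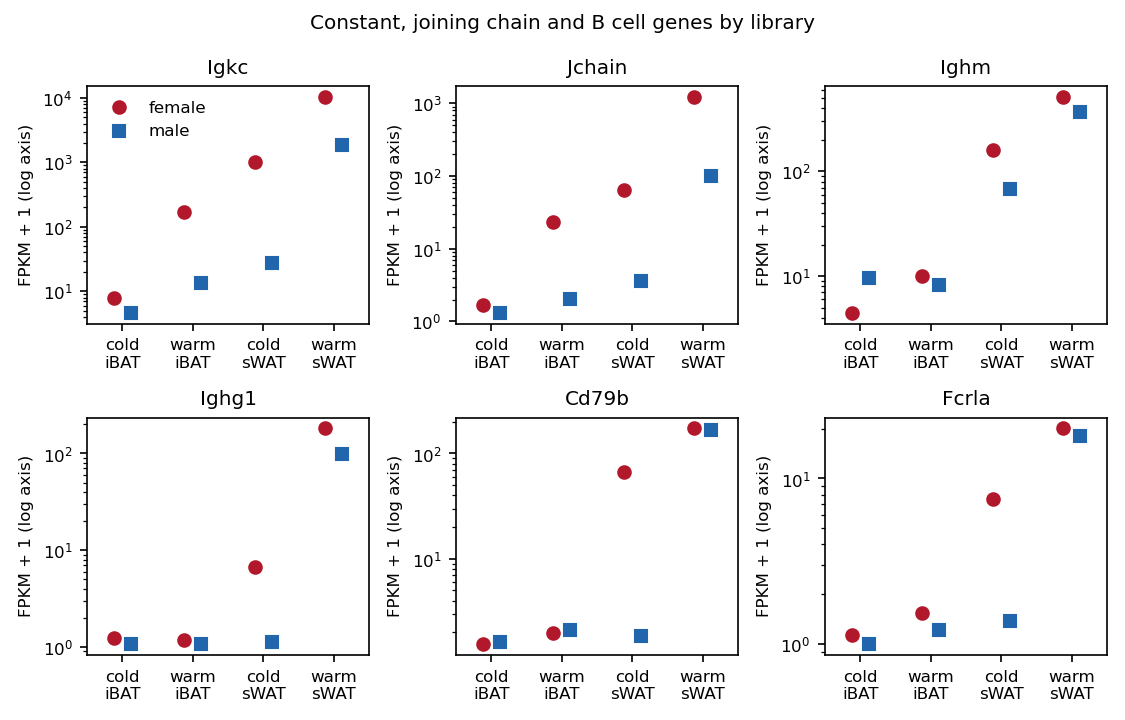
FPKM + 1 on a log axis for 6 genes in the 8 mouse libraries, with females as red circles and males as blue squares. Igkc and Jchain are higher in the female than in the male library of all 4 groups, while the female and male points of Cd79b and Fcrla nearly coincide in warm sWAT.

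Among the V genes, the kappa gene Igkv1-117 had the highest level, with 36.6 FPKM in cold female and 8.87 FPKM in cold male sWAT, against 1136 FPKM in warm female and 60.3 FPKM in warm male sWAT (change −3.41 ± 0.92, limma, adjusted p = 0.027). Igkv6-13 had 6.01 FPKM in cold female and 0.344 FPKM in cold male sWAT, against 169 FPKM in warm female and 88.5 FPKM in warm male sWAT, and had the largest V gene fall (−4.96 ± 0.68, adjusted p = 0.0123). Igkv8-24 was at 4.48 FPKM in cold female and 4.20 FPKM in cold male sWAT, against 218 FPKM in warm female and 19.8 FPKM in warm male sWAT (−3.29 ± 0.81, adjusted p = 0.0216). Unlike most V genes, it was nearly level between the female and the male cold library. Without the cold male library the calls of Igkv1-117 (−3.94, adjusted p = 0.0886) and Igkv8-24 (−4.24, adjusted p = 0.0515) were lost, and that of Igkv6-13 was not (−4.46, adjusted p = 0.044).

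Of the heavy V genes, Ighv1-82 had 34.5 FPKM in cold female sWAT and was listed at 0 in cold male sWAT, against 251 FPKM in warm female and 35.5 FPKM in warm male sWAT (−3.64 ± 1.10, limma, adjusted p = 0.0356). The cold female and the warm male value lay next to each other. The lambda gene Iglv1 had 16.7 FPKM in cold female and 0.946 FPKM in cold male sWAT, against 254 FPKM in warm female and 45.7 FPKM in warm male sWAT (−3.85 ± 0.73, adjusted p = 0.0151). Its near copy Iglv2, shown above, had 2.88 FPKM in cold female sWAT and was listed at 0 in cold male sWAT, against 65.4 FPKM in warm female and 8.55 FPKM in warm male sWAT (−3.31 ± 0.74, adjusted p = 0.0191). Without the cold male library none of the 3 passed, with −2.08 for Ighv1-82 (adjusted p = 0.163), −2.96 for Iglv1 (adjusted p = 0.0596) and −2.87 for Iglv2 (adjusted p = 0.0952). The close pair Ighv1-20 and Ighv1-37 differed in level, with 9.71 FPKM for Ighv1-20 and 26.5 FPKM for Ighv1-37 in warm female sWAT. In cold female sWAT they had 2.01 FPKM and 4.31 FPKM, against 1.96 FPKM and 2.69 FPKM in warm male sWAT, so for both the cold and the warm group overlapped.

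Limma called 35 of the 39 kept genes lower in cold sWAT and none higher, where 33.3% of all 10689 genes tested were called lower, 7.56% higher and 40.9% in either direction. Their median change was −3.02 less the median of all genes. The 4 not called were Cd79b, Ighv1-37, Ighv2-9-1 and Ighv6-7. In 34 of the 39 kept genes the groups did not overlap, but the share of all genes without overlap was not counted, so this is a description. A gene kept only for its warm sWAT levels had to be higher there, and this held for Ighv1-66, Igkv12-38 and Igkv14-130. With no floor, 43 of the 45 matched genes could be tested, and 22 were called lower where 25.8% of all genes were. The count rests on single libraries: it was 0 of 39 without warm female sWAT, 10 without warm male sWAT and 10 without cold male sWAT, and it was 19 in the fit without a sex term.

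The 6 matched genes below the floor included Ighe, the constant region of IgE, which had 0.0444 FPKM in cold female sWAT and was listed at 0 in cold male sWAT, against 4.36 FPKM in warm female and 0.669 FPKM in warm male sWAT. It was listed at 0 in all 4 iBAT libraries. Ighv11-1 and Ighv3-5 lay close to the floor in the same way, with second-highest values of 0.714 and 0.653 FPKM, while Ighv6-7 and Ighv1-20, just inside it, had second-highest values of 1.71 and 2.01 FPKM. Ighv12-3 reached 0.571 FPKM in warm female sWAT, and Ighv16-1 and Igkv13-87 were listed at 0 in every mouse library.

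Brown fat held far less antibody RNA than white fat in warm mice. Igkc was at 167 FPKM in the female and 12.4 FPKM in the male library of warm iBAT, against 10419.8 FPKM in the female and 1846 FPKM in the male library of warm sWAT (change −5.96 ± 0.97, limma, adjusted p = 0.00363). Jchain was at 22.5 FPKM in warm female and 1.02 FPKM in warm male iBAT, against 1231 FPKM in warm female and 97.9 FPKM in warm male sWAT (−5.09 ± 0.92, adjusted p = 0.00443). The female library was the higher of the pair in both depots for both genes.

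Ighm was at 9.06 FPKM in warm female and 7.22 FPKM in warm male iBAT, against 515 FPKM in warm female and 368 FPKM in warm male sWAT (−5.01 ± 0.52, limma, adjusted p = 0.00184). The switched class Ighg1 was at 0.192 FPKM in warm female and 0.067 FPKM in warm male iBAT, against 181 FPKM in warm female and 98.0 FPKM in warm male sWAT (−6.32 ± 0.60, adjusted p = 0.00181). Cd79b was at 0.962 FPKM in warm female and 1.11 FPKM in warm male iBAT, against 172 FPKM in warm female and 166 FPKM in warm male sWAT (−5.81 ± 1.36, adjusted p = 0.0102). The Cd79b call was lost without the warm female iBAT library (−4.92, adjusted p = 0.0736) and without the warm male sWAT library (−5.04, adjusted p = 0.0643).

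All 39 kept genes were called lower in warm iBAT, where 51.0% of all genes were called lower (62.5% in either direction, 11.5% higher). Their median change was −3.72 less the median of all genes, −0.57. None of the 39 overlapped between the depots, but the share of all genes without overlap was not counted. Of the 39 genes, 20 reached the floor in sWAT libraries alone, so a difference between the depots was in part fixed by how they were kept. With no floor 39 of 43 tested were called lower, where 42.7% of all genes were, and the count of kept genes was 24 without the warm female iBAT library. Within the female pair the V genes of iBAT were at a median of 0.0101 times their sWAT level, from 0 to 0.0622. Of 31 V members, 8 were listed at 0 in warm female iBAT and 22 in warm male iBAT, against none in either warm sWAT library. Among V members the smallest value above 0 was 0.146 FPKM, and it lay between 0.2 and 0.3 FPKM for 18 of the 31, so iBAT values in that range lie at the lowest steps of the data.

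Cold and warm iBAT were not told apart in any kept gene. Igkc was at 6.96 FPKM in cold female and 3.65 FPKM in cold male iBAT, against 167 FPKM in warm female and 12.4 FPKM in warm male iBAT. Both cold libraries lay below both warm ones, but the change of −2.67 ± 0.97 did not pass (limma, adjusted p = 0.0845). Jchain was at 0.658 FPKM in cold female and 0.317 FPKM in cold male iBAT, against 22.5 FPKM in warm female and 1.02 FPKM in warm male iBAT (−1.93 ± 0.92, adjusted p = 0.139). Ighm was at 3.48 FPKM in cold female and 8.51 FPKM in cold male iBAT, against 9.06 FPKM in warm female and 7.22 FPKM in warm male iBAT, so its groups overlapped (−0.18 ± 0.52, adjusted p = 0.538). Limma called 0 of the 39 kept genes, where 18.2% of all genes were called, 15.0% lower and 3.22% higher. Of the kept genes 1 (Igkc) had an unadjusted p under 0.05, as had 37.9% of all genes. Of 31 V members, 25 were listed at 0 in cold female and 28 in cold male iBAT.

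The cold difference was not shown to be unlike in the depots. The difference between the cold change in sWAT and the cold change in iBAT was −5.59 ± 0.85 for Ighg1 (limma, adjusted p = 0.0796) and −1.71 ± 1.37 for Igkc (adjusted p = 0.46). Ighg1 was at most 0.248 FPKM in iBAT, and most V members were listed at 0 in every iBAT library but the warm female one. A gene so low in iBAT can change little there on this scale, so its difference is largely the sWAT change. No kept gene was called, where 0.0187% of all genes were called, and 21 of 39 had an unadjusted p under 0.05, as had 24.8% of all genes. Without the cold female sWAT library 12 kept genes were called, together with 1110 genes in all.

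Female libraries held more antibody RNA than male ones in most groups, though no kept gene passed the test over both depots. Igkc was higher in the female library in 4 of 4 groups, with a difference of 2.91 ± 0.69, and so was Jchain, with 2.81 ± 0.65 (limma, adjusted p = 0.375 for both). Cd79b was higher in the female library in 2 of 4 groups, with a difference of 1.15 ± 0.96 (adjusted p = 0.492). Limma called 0 of the 39 kept genes between the sexes, where 0.00936% of all genes were called, and 19 had an unadjusted p under 0.05, as had 12.9% of all genes. Of the 39, 9 were higher in the female library in 4 of 4 groups, 21 in 3, 7 in 2 and 2 in 1.

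In sWAT taken alone, with a sex difference fitted for each depot, limma called 11 of the 39 kept genes higher in females and none lower, where 1.82% of all genes were called, 1.59% higher and 0.234% lower. They were Ighg3, Iglv1, Iglv2, the kappa gene Igkv3-10 and 7 heavy V genes, namely Ighv1-20, Ighv1-37, Ighv1-39, Ighv2-5, Ighv2-9-1, Ighv3-6 and Ighv7-3. Ighg3, at 4.10 FPKM in the female and 0.0571 FPKM in the male library of cold sWAT and at 89.8 FPKM in the female and 20.4 FPKM in the male library of warm sWAT, had a female minus male difference of 2.04 ± 0.14 (adjusted p = 0.0256). Igkc (3.69 ± 0.91, adjusted p = 0.122) and Jchain (3.77 ± 0.76, adjusted p = 0.0909) had larger differences with larger errors and did not pass. The count of 11 was 0 with a pseudocount of 0.1, with no floor, and without any 1 of the 4 iBAT or the 2 cold sWAT libraries. In iBAT taken alone 0 kept genes were called, as were 0% of all genes, and 1 had an unadjusted p under 0.05, as had 3.49% of all genes. The sex difference in sWAT minus that in iBAT was called for 0 kept genes, as for 0% of all genes, and 23 kept genes had an unadjusted p under 0.05, as had 10.5% of all genes, so the sex difference was not shown to be unlike in the depots.

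In warm sWAT, female against male, the genes fell into a graded order, which is a description of 2 libraries. Cd79b was at 172 FPKM in the female and 166 FPKM in the male library, a ratio of 1.04, and Fcrla had a ratio of 1.12. Ighm (1.40), Iglc2 (1.47) and Ighg1 (1.85) were next, followed by Ighg3 (4.41), Igkc (5.64) and Jchain (12.6). The 31 V members ran from a ratio of 1.44 for Igkv4-91 to 33.3 for Ighv5-9, with a median of 7.08. The median was 9.95 for heavy V genes, 3.55 for kappa V genes and 5.57 for lambda V genes.

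**Figure D3:**
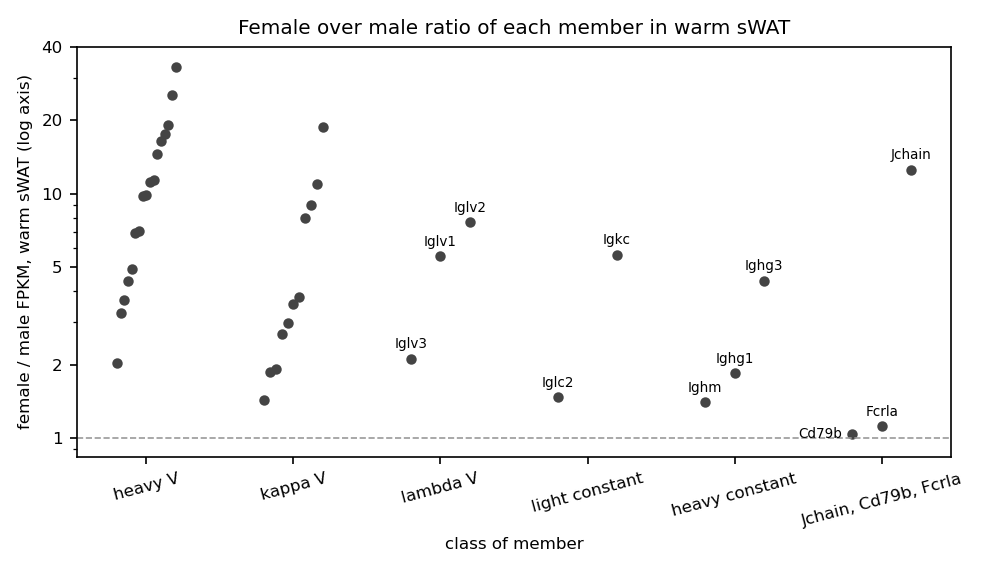
Ratio of FPKM in the female to the male library of warm sWAT on a log axis, with 1 point for each of the 39 kept genes and the classes side by side. Cd79b, at 1.04, lies on the dashed line of equal levels, Jchain lies at 12.6, and heavy V genes reach 33.3.

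Set against Cd79b within each library, the antibody genes were not in a fixed proportion to this B cell gene. Igkc was 15.1 times Cd79b in cold female and 31.7 times in cold male sWAT, against 60.4 times in warm female and 11.1 times in warm male sWAT. Jchain was 0.954 times Cd79b in cold female and 3.01 times in cold male sWAT, against 7.14 times in warm female and 0.591 times in warm male sWAT. The warm female library stood highest in Jchain and the 2 warm libraries stood on either side of the cold female one. Warm female iBAT had the highest ratios of all 8 libraries for both, 173 for Igkc and 23.4 for Jchain, but there Cd79b was only 0.962 FPKM. In cold male sWAT Cd79b was 0.848 FPKM, so the ratios of that library rest on a low value as well.

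Ighm behaved otherwise in cold male sWAT. It was 79.1 times Cd79b there and 2.40 times in cold female sWAT, against 2.99 times in warm female and 2.22 times in warm male sWAT. The ratio of 79.1 rests on a Cd79b level of only 0.848 FPKM. In iBAT, where Cd79b was 0.542 to 1.11 FPKM, Ighm was 6.42 to 13.4 times Cd79b. With Ighm at 67.1 FPKM and Igkc at 26.9 FPKM, the light constant genes summed to 0.418 times the heavy constant genes in cold male sWAT and 6.32 times in cold female sWAT, against 13.5 times in warm female and 4.18 times in warm male sWAT. A ratio below 1 was otherwise found only in cold male iBAT, at 0.493.

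The classes of heavy chain were not in the same proportion in all libraries. Ighm made up 94.1% of heavy constant FPKM in cold female and 99.7% in cold male sWAT, against 65.2% in warm female and 75.6% in warm male sWAT. Ighg1 was 3.41% in cold female and 0.173% in cold male sWAT, against 22.9% in warm female and 20.1% in warm male sWAT. Ighg3 was 2.43% in cold female and 0.0848% in cold male sWAT, against 11.4% in warm female and 4.18% in warm male sWAT. The cold and warm shares did not overlap for any of the 3 genes. In the iBAT libraries Ighm was 90.4% to 98.5% of a sum of only 3.84 to 9.44 FPKM. The other heavy constant genes, those of IgA, IgD, IgG2b and IgG2c among them, are not analysed here, so these are shares of the 4 genes measured.

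**Figure D4:**
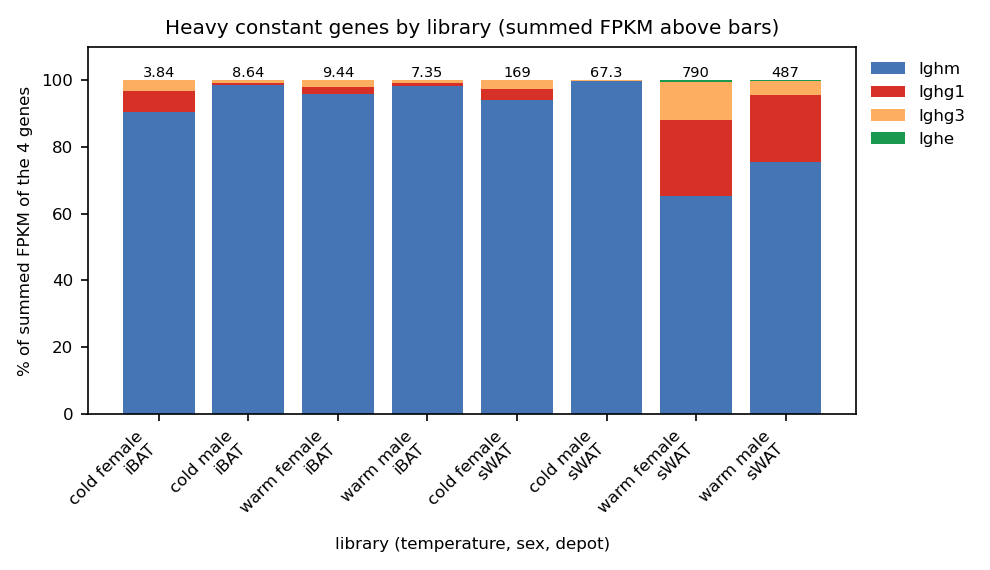
Share of the summed FPKM of Ighm, Ighg1, Ighg3 and Ighe in each mouse library, with the sum in FPKM above each bar. The Ighg1 share is largest in the 2 warm sWAT libraries (22.9% in the female and 20.1% in the male) and at most 6.44% elsewhere. The Ighg3 share is 11.4% in warm female and 4.18% in warm male sWAT, and at most 3.15% elsewhere.

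Between the light constant genes measured, Igkc and Iglc2, Iglc2 took a small share that varied. Iglc2 was 6.33% of their summed FPKM in cold female and 4.48% in cold male sWAT, against 2.58% in warm female and 9.21% in warm male sWAT, so the cold shares lay between the warm ones. Other lambda constant genes, Iglc3 among them, are not analysed here, so the share of all lambda chains cannot be read from these values. The V genes were spread over many members in the libraries rich in antibody RNA. Of 36 V genes matched, 28 reached 1 FPKM in cold female and 2 in cold male sWAT, against 32 in warm female and 31 in warm male sWAT. In iBAT 14 did so in the warm female library and none in the other 3.

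The 36 matched V genes summed to 208 FPKM in cold female and 16.5 FPKM in cold male sWAT, against 3451 FPKM in warm female and 468 FPKM in warm male sWAT. The cold male shares thus rest on low values. Of these sums, Igkv1-117 took 17.6% in cold female and 53.9% in cold male sWAT. In warm sWAT it took 32.9% in the female and 12.9% in the male library, where Igkv6-13 led with 18.9%. The effective number of V genes, the exponential of the Shannon entropy of their shares, was 17.8 in cold female and 4.09 in cold male sWAT, against 14.7 in warm female and 17.8 in warm male sWAT. Across the 36 V genes, log2(FPKM + 1) in warm female sWAT had a Pearson r of 0.848 with warm male sWAT, 0.826 with cold female sWAT and 0.722 with warm female iBAT. These are descriptions across genes that share sequence and libraries that share a processing, not tests.

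Many marker genes of B cells and of T cells also fell in cold sWAT. Of 15 B cell genes, 9 fell in cold sWAT and none rose, with a median change of −2.21, where 33.3% of all genes were called lower and 7.56% higher. Calls of the marker list genes with a library left out are not given here, so how far they rest on single libraries is not shown. Ms4a1, the surface protein CD20, was at 22.0 FPKM in cold female and 0.177 FPKM in cold male sWAT, against 73.3 FPKM in warm female and 48.0 FPKM in warm male sWAT (−3.17 ± 1.08, limma, adjusted p = 0.0475). Cd79a, the partner of Cd79b, was at 55.3 FPKM in cold female and 0.736 FPKM in cold male sWAT, against 128 FPKM in warm female and 126 FPKM in warm male sWAT and, like Cd79b, did not pass (−3.32 ± 1.32, adjusted p = 0.0716). The summed FPKM of the B cell list was 249 in cold female and 11.2 in cold male sWAT, against 638 in warm female and 549 in warm male sWAT, and 2.36 to 6.97 in iBAT.

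Of 14 T cell genes, 13 fell in cold sWAT, where 33.3% of all genes were called lower. Lck, a kinase of T cell receptor signalling, was at 33.9 FPKM in cold female and 0.889 FPKM in cold male sWAT, against 93.7 FPKM in warm female and 96.4 FPKM in warm male sWAT (−3.20 ± 1.06, limma, adjusted p = 0.0441). The T cell sum was 188 in cold female and 5.89 in cold male sWAT, against 572 in warm female and 607 in warm male sWAT. The sum of 7 lymph node stroma and vessel genes, led by the cytokine gene Ltb, was 92.2 in cold female and 16.0 in cold male sWAT, against 228 in warm female and 234 in warm male sWAT. Of these genes, 5 could be tested and 3 fell. The part of lymph node tissue in the antibody result was not tested.

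In the cold male sWAT library most defining lymphocyte markers were near 0, with Cd3e at 0.224 FPKM and Ccr7 at 0.132 FPKM. That library was also the one rich in muscle RNA, with Ckm, muscle creatine kinase, at 360 FPKM against 3.42 FPKM in cold female sWAT, and the part of muscle in the result was not tested. In the 2 female libraries the cold level in sWAT was 0.384 times the warm one for Cd79b, 0.309 times for Ighm, 0.0959 times for Igkc, 0.0513 times for Jchain and 0.0318 times for Ighg1. The ratio of the V members in that pair had a median of 0.0511 and was at most 0.41. Since every kept gene was highest in warm female sWAT, the direction in that pair was fixed. Set against warm male sWAT, the cold female library was lower in 34 of the 39 kept genes and higher in Ighv1-20, Ighv1-37, Ighv2-9-1, Ighv6-7 and Ighv7-3.

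Many plasma cell genes serve the secretory pathway of all cells. Of 15 such genes, 12 fell in cold sWAT, where 33.3% of all genes were called lower, with a median change of −0.49. Xbp1, a transcription factor of secretory cells, was at 51.4 FPKM in cold female and 38.7 FPKM in cold male sWAT, against 96.4 FPKM in warm female and 64.9 FPKM in warm male sWAT (−0.45 ± 0.15, limma, adjusted p = 0.0167). Pou2af1, a coactivator of immunoglobulin promoters in B and plasma cells, was at 12.9 FPKM in cold female and 0.140 FPKM in cold male sWAT, against 50.2 FPKM in warm female and 30.9 FPKM in warm male sWAT. Of 7 germinal centre genes, 5 fell and 1, Bcl6, rose (1.27 ± 0.23, adjusted p = 0.0298).

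Of 15 genes of B cell receptor signalling, the pathway that Cd79b serves, 11 fell in cold sWAT and none rose, with a median of −1.53. Of all genes, 33.3% were called lower there. Ptpn6, a phosphatase that damps the receptor, was at 34.0 FPKM in cold female and 4.46 FPKM in cold male sWAT, against 93.9 FPKM in warm female and 80.4 FPKM in warm male sWAT (−2.30 ± 0.69, limma, adjusted p = 0.0304). Cd81, a widely expressed membrane protein of the tetraspanin family, did not pass (0.31 ± 0.15, adjusted p = 0.794). Of 9 genes tested for transcription and rearrangement of immunoglobulin genes, 8 fell, among them Ikzf1, the lymphocyte factor Ikaros (−2.07 ± 0.51, adjusted p = 0.0198). Ebf1, which fat cell precursors also express, did not pass (−0.12 ± 0.27, adjusted p = 0.191).

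Of 6 receptors and carriers of antibody tested, 2 fell in cold sWAT, where 33.3% of all genes were called lower, and their median change was −0.35. Fcgrt, the neonatal Fc receptor that protects IgG from breakdown, was at 151 FPKM in cold female and 180.3 FPKM in cold male sWAT, against 124 FPKM in warm female and 162 FPKM in warm male sWAT (0.58 ± 0.22, limma, adjusted p = 0.46). Of 8 class II antigen presentation genes 7 fell and H2-Eb1 rose (1.84 ± 0.36, adjusted p = 0.027). H2-Eb1 was at 142 FPKM in cold female and 52.6 FPKM in cold male sWAT, against 32.0 FPKM in warm female and 29.1 FPKM in warm male sWAT, and Cd74, which pairs with its product, fell (−1.52 ± 0.45, adjusted p = 0.0253).

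In warm iBAT against warm sWAT, all 15 B cell and all 14 T cell genes tested were lower, with median changes of −3.66 and −4.22. The same was so for 14 of 15 plasma cell genes, 14 of 15 receptor signalling genes, all 5 lymph node genes tested and all 8 class II genes. Of all genes, 51.0% were called lower in this comparison. Cd81 was the receptor signalling gene that was higher (1.01 ± 0.15, limma, adjusted p = 0.0436). In cold against warm iBAT, the B cell gene Cd37 (−0.19 ± 0.63, adjusted p = 0.611) and the T cell gene Lck (0.21 ± 1.06, adjusted p = 0.967) did not pass. Of 15 plasma cell genes 3 were called lower there, and of 8 class II genes 2 lower and 1 higher, where 15.0% of all genes were called lower and 3.22% higher. H2-Eb1 was at 11.0 FPKM in cold female and 11.2 FPKM in cold male iBAT, against 3.85 FPKM in warm female and 2.95 FPKM in warm male iBAT.

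The summed FPKM of the mammary and epithelial genes was higher in the female than in the male library of all 4 groups. Ltf, the milk protein lactotransferrin, was at 148 FPKM in cold female and 0.0186 FPKM in cold male sWAT, against 329 FPKM in warm female and 0.421 FPKM in warm male sWAT. In iBAT it was at 1.10 FPKM in cold female and 0.0421 FPKM in cold male, against 14.2 FPKM in warm female and 0.0423 FPKM in warm male libraries. Warm female iBAT was thus the iBAT library highest in Ltf as well as in Igkc, Jchain and the summed V genes. Some single V genes, Ighv1-20 and Ighv2-5 among them, were listed at 0 there and above 0 in another iBAT library. The summed FPKM of the B cell list was 6.97 in warm female iBAT, against 6.62 in warm male iBAT. The female minus male difference of Ltf, 4.87 ± 1.17, did not pass (limma, adjusted p = 0.375), and the part of mammary tissue in the female levels was not tested.

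**Figure D5:**
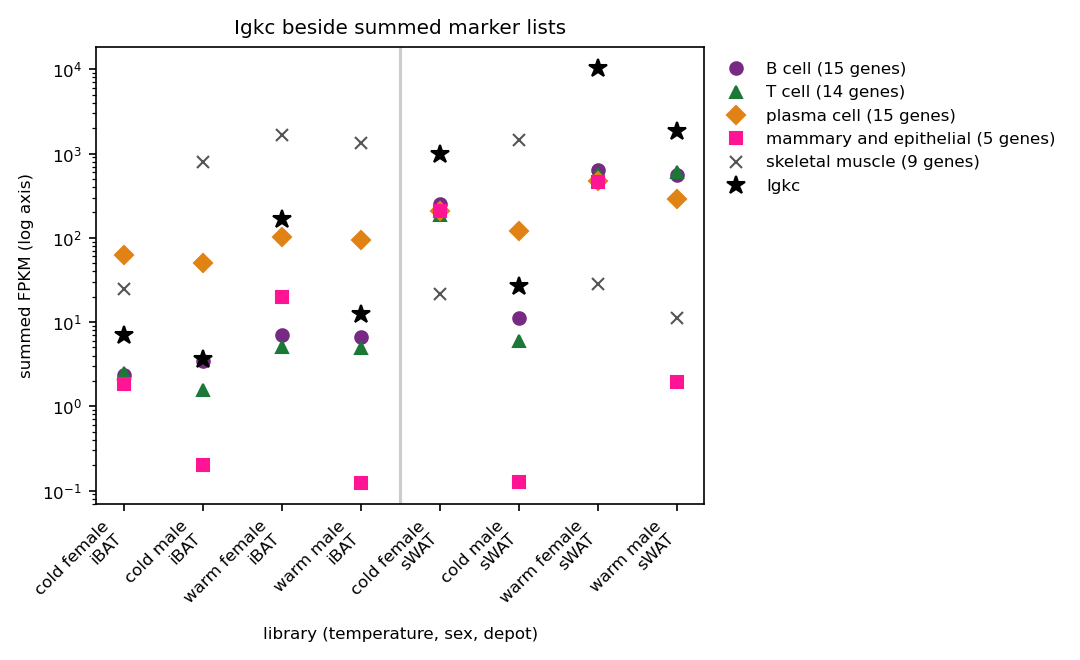
Summed FPKM of 5 marker lists and the FPKM of Igkc (stars) in each mouse library on a log axis. The B and T cell sums follow Igkc down in cold male sWAT (11.2 and 5.89), where the muscle sum is 1454, and the mammary sums of the female libraries exceed those of the male ones.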

How the data were processed

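Expression was read from 1 deposited table of FPKM, made by the authors, with 14871 genes in 20 libraries; the 8 mouse libraries were used. CASAVA 1.8 is named per the submitters' processing notes. How reads were aligned and counted, on which build, with what rule for reads shared by copies and to what library size FPKM were scaled is not given in the sources used here. No counts were used here, so no counting intervals were computed, and depth is known only relative to 1 library. GENCODE M21 gave symbols to 14723 identifiers and none to 148.

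Values were taken as log2(FPKM + 1). The 10689 genes that reached 1 FPKM in 2 or more mouse libraries were fitted with limma 3.58.1 in R 4.3.3, with the model group + sex over all 8 libraries (3 residual degrees of freedom before moderation) and eBayes without a trend. Sex differences within a depot come from the model group + sex within depot. Tests were two-sided, with Benjamini-Hochberg adjustment over all genes of a comparison and calls at an adjusted p under 0.05. Changes are printed less the median of all genes; p-values are those of the unshifted coefficients. Permutation of 2 against 2 libraries cannot reach that threshold. The steps were tested on simulated data.

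The members, the marker lists and the tests were chosen with earlier results of these data known. Genes named are the constant genes, Jchain, Cd79b and Fcrla, the V genes with the highest levels, up to 4 genes of a list by mean level, and the 10 genes most like Igkc. Ighv1-20, Ighv1-37, Cd3e, Pou2af1, Igkv4-91, Ighv5-9, the genes called between the sexes in sWAT, and the genes below the floor or not called were named after their values were seen. Alternatives were another pseudocount, no floor, median-ratio scaling, quantile normalization, equal sums without immunoglobulin genes and the 10 highest genes, no sex term, a trend, and leaving out each library. Female minus male differences between groups correlated from −0.02 to 0.47. Between iBAT and sWAT of one temperature r was 0.41 (warm) and 0.37 (cold). It was 0.47 between the sWAT groups and at most 0.15 for the other pairs. A shared animal or batch was not taken from these values, and pairing of the depots within animals was not tested. The model holds no term for the animal, and sex is a labelled factor.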

Additional observations from a re-analysis of the deposited data

How the results depend on the processing

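With 2 libraries per group and 4 groups sharing 1 estimate of the spread, single libraries decide much of what passed. No called change of the 21 named members turned its sign under any alternative. In cold against warm sWAT, 35 of 39 kept genes were called. This count was 21 with a pseudocount of 0.1, 21 with no floor, 22 with median-ratio scaling and 19 without the replicate block (no sex term), and ran from 0 to 33 when a library was left out; the cause was not tested. Of all genes, 4367 were called there (808 higher), 2360 with median-ratio scaling (1382 higher) and 2839 with quantile normalization (1363 higher), and 3 to 4162 without a library: 3 without warm female, 234 without warm male and 1292 without cold male sWAT. In cold against warm iBAT the call of 0 kept genes became 1 with a pseudocount of 0.1, and ran from 0 to 1 when a library was left out. There 1950 of all genes were called (344 higher), 1201 with median-ratio scaling (746 higher), 590 with quantile normalization (347 higher) and 0 to 2427 without a library. In warm iBAT against sWAT, 35 of the 39 were called without the block, and 24 to 39 without a library, beside 3732 to 6811 of all genes. There 1229 of 6679 calls were higher, against 2626 of 5096 with median-ratio scaling and 2665 of 5123 with quantile normalization, since these scalings take the median change of all genes to near 0. For the difference between depots in the cold change, 2 genes were called in all, 0 with a pseudocount of 0.1, with no floor or with median-ratio scaling, 17 with quantile normalization, 4 without the block, 6 with a trend and 0 to 1110 without a library, when 0 to 12 kept genes were called. Between the sexes 1 gene was called, and 0 with no floor, median-ratio scaling, quantile normalization, equal sums, a trend or any library left out. For female against male in sWAT, a result added after seeing the data, 11 kept genes were called of 195 genes in all. These counts were 0 of 44 with a pseudocount of 0.1, 0 of 0 with no floor and 5 of 50 with quantile normalization, and ran from 0 to 13 and from 0 to 216 when a library was left out; for iBAT the only change was 1 gene called with a pseudocount of 0.1. The difference in sex effect between depots was not refitted with other scalings, no floor or no sex term. The numbers of V genes at 0.1 and 5 FPKM in place of 1 FPKM were 30 and 11 in cold female, 10 and 1 in cold male, 34 and 30 in warm female, and 33 and 20 in warm male sWAT.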

Other observations

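Genes outside the members were ranked by how closely their log2(FPKM + 1) followed Igkc over the 8 mouse libraries. Genes with provisional names, such as those of the Gm or Rik form, were left aside. The closest were Myo1e (Pearson r = 0.998), a class I myosin, Rpp21 (0.998), Mta1 (0.997), Glyr1 (0.996) and Mmrn1 (0.992). Next came Plxdc1 (0.991), Rell1 (0.991), Socs2 (0.989), Casp2 (0.989) and Frg1 (0.989). None of these is a gene of the marker lists. The 8 points share depots and libraries, and the values are a description. Myo1e was at 7.77 FPKM in cold female and 3.11 FPKM in cold male sWAT, against 15.8 FPKM in warm female and 9.26 FPKM in warm male sWAT. Socs2, a suppressor of cytokine signalling, was at 6.57 FPKM in cold female and 2.04 FPKM in cold male sWAT, against 10.9 FPKM in warm female and 8.04 FPKM in warm male sWAT. Both spanned a far smaller range than Igkc.

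The 12 bat libraries carry values under mouse gene identifiers, and levels were not compared between species. There Igkc ran from 4.81 to 471 FPKM with a median of 49.2, Iglc2 from 6.31 to 190 FPKM, Ighg3 from 2.63 to 122 FPKM and Jchain from 3.39 to 52.7 FPKM. The lambda V copies parted: Iglv2 ran from 8.06 to 30.5 FPKM, while Iglv1 had a median of 0. Cd79b was at most 0.369 FPKM.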
